A study of Mus musculus with 60 samples.

Results

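H19, Igf2, Dlk1, Meg3, Cdkn1c, Peg3, Plagl1, Grb10 and Mest, 9 imprinted genes that act on growth, were followed across mouse fibroblasts, normal tissues and tumours. They were chosen by symbol, and each has a row in both deposited count tables, 9 of 46517 genes in the fibroblast table and 9 of 54838 in the tissue table. The 60 libraries hold tags from the 3' ends of transcripts (QuantSeq) and come from a mouse line with a CD74-NRG1 fusion transgene in the Rosa26 locus. A stop cassette between FRT sites was removed early in the embryo by a Flp deleter allele, so that the fusion should be expressed in nearly all tissues, normal ones included. The fibroblasts (MEFs) came from 9 embryos, 3 labelled homozygous (Rosa26FSF.CD74-NRG1/FSF.CD74-NRG1), 3 heterozygous (Rosa26FSF.CD74-NRG1/Flp) and 3 negative (Rosa26Flp/Flp), each taken at passage 3 and at passage 1. By these labels the homozygous embryos carried no Flp allele at Rosa26. The tissue libraries came from 9 Rosa26CD74-NRG1/Flp mice, whose age is not given in the labels. There were sarcomas of 6 mice (7 libraries, the pair from mouse M00245 summed), liver tumours of 3 mice and an intestine tumour of 1 mouse (2 libraries, summed). Normal tissue of mice of the same line gave 6 muscles, 8 livers, 7 lungs, 6 spleens, 2 brains and 1 kidney. No tissue labelled as without the transgene was analysed here.

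Imprinted genes are read mainly from the copy inherited from 1 parent. Many of them set growth before birth, and many of these growth genes fall to low levels in various tissues after birth. Igf2 (paternally expressed) encodes insulin-like growth factor 2, the main growth factor of the fetus, and H19 (maternally expressed) is a noncoding RNA from the neighbouring gene. In the same way Dlk1, a transmembrane relative of Notch ligands, lies beside Meg3, a maternally expressed noncoding RNA. Cdkn1c, an inhibitor of cyclin-dependent kinases, and Grb10, an adaptor that dampens insulin and IGF receptors, restrain growth. Plagl1, paternally expressed, is a zinc finger transcription factor that slows proliferation in cultured cells, while its loss in mice restricts growth before birth. Peg3 is a zinc finger protein and Mest a protein of the hydrolase family, both paternally expressed. By the GENCODE mouse annotation release 21, H19, Igf2, Cdkn1c and Peg3 lie on chromosome 7, Dlk1 and Meg3 on chromosome 12, Plagl1 on 10, Grb10 on 11 and Mest on 6.

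H19, Igf2 and Mest are also host transcripts of microRNAs, small RNAs that pair with messages through a seed at bases 2 to 8. Within the gene bodies of 4 members, in the same direction, the RefSeq microRNA table (GRCm38.p6) places 9 mature microRNAs, with 9 different seeds. The 6 from the 3 hosts that differed most between tumours and normal tissue are shown 5′ to 3′, with the seed in capitals.
mmu-miR-675-5p: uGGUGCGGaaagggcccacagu
mmu-miR-675-3p: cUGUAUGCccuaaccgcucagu
mmu-miR-483-5p: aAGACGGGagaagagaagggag
mmu-miR-483-3p: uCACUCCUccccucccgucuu
mmu-miR-335-5p: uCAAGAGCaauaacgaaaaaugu
mmu-miR-335-3p: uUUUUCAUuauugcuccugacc
The miR-675 pair lies inside H19 (chr7:142577112-142577133 and chr7:142577078-142577099, minus strand). The miR-483 pair lies inside Igf2 (chr7:142654968-142654989 and chr7:142654932-142654952, minus strand), and the miR-335 pair inside Mest (chr6:30741314-30741336 and chr6:30741354-30741375, plus strand). The rows of Mir675, Mir483 and Mir335 hold 0 counts in all libraries of both tables, so values below are for the host transcripts and say nothing of the level of the mature microRNAs.

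Library totals were 3107561 to 5511793 counts in MEFs and 4837536 to 10089637 in tissues. Levels are CPM, counts scaled to the library's total. A count of 0 allows up to 3 counts, 0.544 to 0.965 CPM in MEFs and 0.188 to 0.522 CPM in tissues. Differences were tested with edgeR's quasi-likelihood test over all genes of a comparison and called past the threshold at an adjusted p under 0.05. Fold changes are on the log2 scale with the first-named group on top. Some libraries go against their labels, or have labels that leave this unclear. Nrg1, the gene of the fusion's ligand part, was at 132 and 147 CPM in embryo 1, labelled negative, and at 0.644 and 1.28 CPM in embryo 3, labelled homozygous. As the homozygous label names no Flp allele, whether low Nrg1 goes against it cannot be told from the labels. For the same reason, homozygous against negative need not compare fibroblasts with and without an expressed fusion. Nrg1 also ran low in some normal tissue libraries, although all tissue mice are given the same genotype. It was at 0.675 to 83.3 CPM in normal livers and 1.3 to 38.5 CPM in muscles. In spleens it was at 2.34 to 26.9 CPM and in lungs at 5.36 to 111 CPM. The later library of embryo 8 is labelled passage 3 in its group and description, while its title gives passage 1 and its column passage 5. The earlier library of embryo 8, used as passage 1 by its description and column, has passage 2 in its title. The liver tumour of mouse M00249 is called a tumour by its group label, while its title names the tissue as liver only. In MEFs the 7 fibroblast markers summed to 4123 to 7662 CPM. Hepatocyte markers summed to 20722 to 93422 CPM in liver tumours and 33371 to 62155 CPM in normal livers.

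In the fibroblasts, 4 of the 9 members differed between passages and all 4 were lower at passage 3: H19, Igf2, Cdkn1c and Peg3. Over all 12051 genes tested, 2.82% were past the threshold, 1.01% as lower at passage 3. Genes of the growth-promoting and of the growth-restraining kind were among the 4. H19 had a median of 615 CPM at passage 3 (477 to 1085), against 1269 CPM at passage 1 (846 to 1470). It was lower at passage 3 in 9 of 9 embryos, with a log2 fold change of -0.92 (SE 0.14, adjusted p = 0.0041). Igf2 had a median of 233 CPM at passage 3 (155 to 495), against 483 CPM at passage 1 (428 to 907). It was also lower in 9 of 9 embryos, by a log2 fold change of -1.09 (SE 0.18, adjusted p = 0.007). For both genes only embryo 10 had a passage 3 value within the range of passage 1. In bulk samples such as these, fewer cells of a type and less RNA per cell cannot be told apart.

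**Figure D1:**
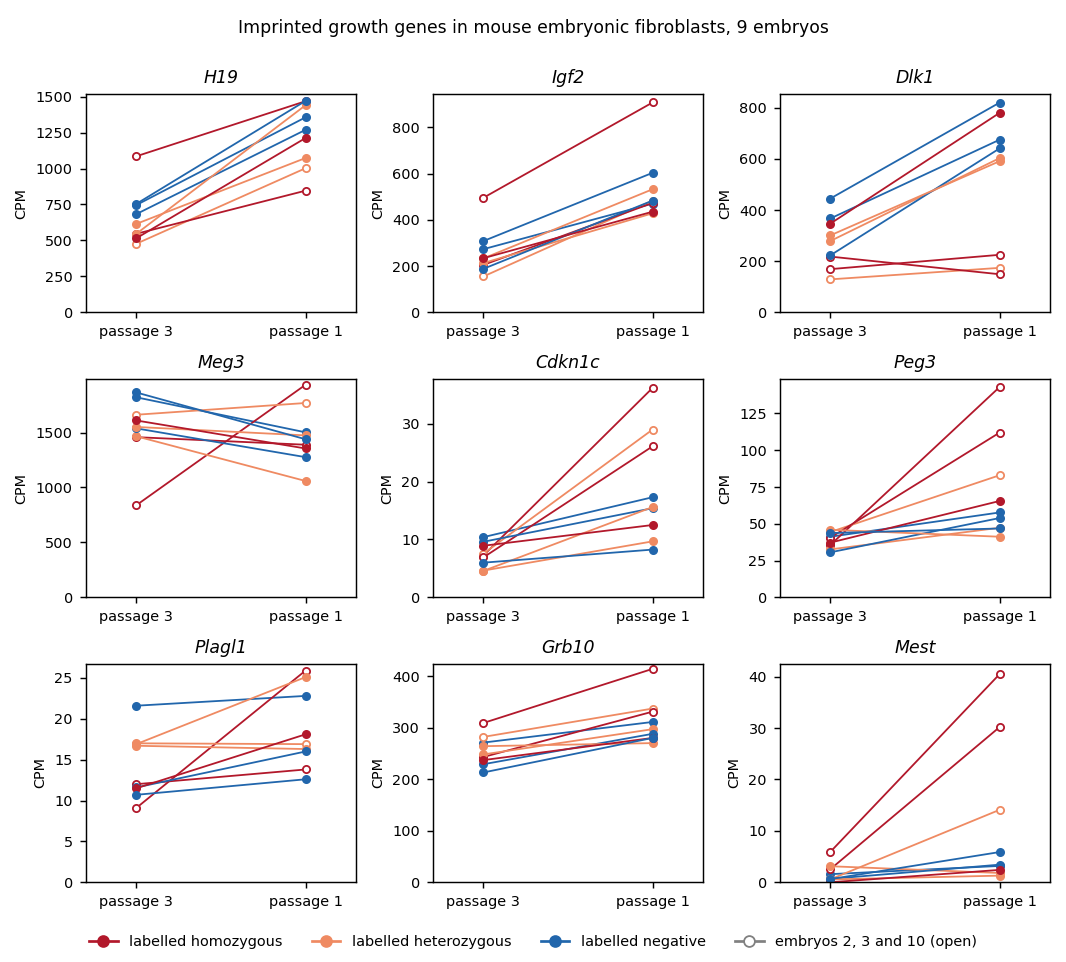
Level in CPM (linear axes from 0) of each gene at passage 3 (left) and passage 1 (right), with 1 line per embryo, coloured by the labelled genotype. H19, Igf2, Cdkn1c and Grb10 were lower at passage 3 in 9 of 9 embryos, and open symbols mark embryos 2, 3 and 10, which had the lowest Dlk1 and the highest Cdkn1c, Peg3 and Mest at passage 1.

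Cdkn1c had a median of 7.22 CPM at passage 3 (4.56 to 10.4), against 15.6 CPM at passage 1 (8.25 to 36.2). Its log2 fold change was -1.36 (SE 0.25, adjusted p = 0.015), and 9 of 9 embryos were lower at passage 3. Peg3 had a median of 40.6 CPM at passage 3 (30.6 to 45.9), against 57.7 CPM at passage 1 (41.2 to 143). Its log2 fold change was -0.82 (SE 0.16, adjusted p = 0.017), with 8 of 9 embryos lower. The spread between embryos was wide for both genes at passage 1 and narrow at passage 3.

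The other 5 members did not pass. Meg3, the partner of Dlk1, had the smallest fold change, 0.05 (SE 0.12, adjusted p = 0.9), with 838 to 1865 CPM at passage 3 and 1059 to 1935 CPM at passage 1. Its medians were 1551 and 1439 CPM, and embryo 10 stood apart with 838 CPM at passage 3 against 1935 CPM at passage 1. Dlk1 held 129 to 445 CPM at passage 3, against 149 to 820 CPM at passage 1, with a log2 fold change of -0.88 (SE 0.3, adjusted p = 0.13). Grb10 was lower at passage 3 in 9 of 9 embryos, at 213 to 309 CPM against 270 to 414 CPM, with a log2 fold change of only -0.3 (SE 0.08, adjusted p = 0.059). Mest was low, with 0 to 5.92 CPM at passage 3 and 1.29 to 40.5 CPM at passage 1 (log2 fold change -2.44, SE 0.66, adjusted p = 0.058). Plagl1 held 9.09 to 21.6 CPM at passage 3, against 12.6 to 25.9 CPM at passage 1 (log2 fold change -0.43, adjusted p = 0.17).

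The number of members past the threshold depended on how embryos entered the fit. With the embryo as a block, 7 members were past it and lower at passage 3, Dlk1 (adjusted p = 0.016), Grb10 (adjusted p = 0.0053) and Mest (adjusted p = 0.0091) having been added. Without embryo 8, whose passages are uncertain, H19, Igf2 and Cdkn1c passed, the last at an adjusted p that rounds to 0.05, and Peg3 gave an adjusted p of 0.067. Only 30 genes in all were then called, against 340. Without embryo 1 or without embryo 3, H19 and Igf2 alone were past it, and without both embryos 0 of the 9 were, when 4 genes in all were called. The log2 fold change of H19 stayed between -0.99 and -0.85 and that of Igf2 between -1.14 and -1.04 when any 1 embryo was left out, and each passed in 9 of 9 such fits.

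At passage 1, embryos 2, 3 and 10 stood apart in several members at once. Dlk1 was at 149 to 225 CPM in these 3 embryos and at 591 to 820 CPM in the other 6. Mest was at 14.1 to 40.5 CPM in them and at 1.29 to 5.88 CPM in the others, Peg3 at 83 to 143 CPM against 41.2 to 65.5 CPM, and Cdkn1c at 26.1 to 36.2 CPM against 8.25 to 17.3 CPM. At passage 3 the same 3 embryos were no longer separate for Cdkn1c and Peg3, and their Dlk1 values, 129 to 218 CPM, were still the lowest. Their libraries differed in cell markers too. The 6 macrophage markers summed to 37.1 to 67.1 CPM in them at passage 1 and 422 to 800 CPM in the others, and the 7 fibroblast markers to 4123 to 5050 CPM and 6841 to 7662 CPM. The 6 markers of satellite cells and myoblasts summed to 12.6 to 182 CPM in the 3 embryos, with 2 to 3 of the 6 at 0, and to 1.89 to 4.74 CPM in the others, with 2 to 4 at 0, and the part of these cells in the members' values was not tested. The 3 embryos were set apart by the passage 1 values of these same genes, so which way each fold change moves without them is fixed by that choice. The values without them were -1.08 for Dlk1, -0.86 for Cdkn1c and -0.48 for Peg3, and no reading is drawn from their p-values.

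Between genotypes as labelled, 0 of the 9 members passed in homozygous against negative embryos at either passage. The share of all 12051 genes called was 0% at both, with 1315 genes at an unadjusted p under 0.05 at passage 1 and 452 at passage 3, while DESeq2 called 24 genes at passage 1. The largest log2 fold changes of members at passage 1 were 2.58 for Mest (SE 0.96, adjusted p = 0.39), 1.03 for Peg3 (SE 0.27, adjusted p = 0.29) and -0.9 for Dlk1 (SE 0.52, adjusted p = 0.54). Of the 3 homozygous embryos, 3 and 10 were in the set described above and embryo 7 was not. Leaving out embryo 7, the homozygous embryo outside that set, had to widen these differences. The 3 members then passed, with log2 fold changes of 3.13, 1.31 and -1.9, and 891 genes in all were called. Heterozygous against negative embryos also gave 0 of 9 members and 0% of genes at both passages (316 and 529 genes at an unadjusted p under 0.05). For the homozygous effect at passage 3 minus that at passage 1, 0 of 9 members and 0% of genes were past the threshold, with 514 genes at an unadjusted p under 0.05.

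In normal tissues each member had its own order of levels, and 65 of 90 tests of a member in a pair of tissues were past the threshold, over 10 pairs and 20111 genes. Of all genes, 62.3% were called in lung against liver, 62.3% in spleen against liver, 55.2% in muscle against liver, 52.8% in brain against liver, 48.1% in spleen against lung, 51.6% in muscle against lung, 44.2% in brain against lung, 56.5% in muscle against spleen, 51.9% in brain against spleen and 42% in brain against muscle. Among the 5 tissues with replicates, brain had the highest median of 6 members, muscle of H19 and Cdkn1c, and lung of Plagl1. Liver had the lowest median of Igf2, Meg3, Peg3, Grb10 and Mest, and was level with lung at 0 for Dlk1.

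H19 stood out in muscle, at 132 to 353 CPM (median 280) in 6 mice. It was at 1.66 to 6.9 CPM in lung, 1.24 to 26.1 CPM in liver, 0.732 to 3.99 CPM in spleen, 1.28 and 1.9 CPM in brain and 2.62 CPM in kidney. Muscle over lung gave a log2 fold change of 7.31 (SE 0.64, adjusted p = 7.1e-11). Keratinocyte markers summed to 856 to 4010 CPM in these muscles and to at most 29.7 CPM in the other normal tissues. The part of such cells in the H19 values was not tested. Among the other tissues, H19 in spleen and brain did not differ beyond its spread (log2 fold change 0.39, adjusted p = 0.76). Its neighbour Igf2 had another order. Igf2 was at 131 and 89.9 CPM in brain, 13.3 to 23.4 CPM in muscle (median 16.5), 1.21 to 17.2 CPM in lung (median 16.4), 1.54 to 18.5 CPM in spleen (median 7.76), 0.248 to 1.15 CPM in liver (median 0.715) and 2.21 CPM in kidney. Brain over muscle (2.02, adjusted p = 0.0032), muscle over lung (1.26, adjusted p = 0.011) and spleen over liver (2.58, adjusted p = 2.7e-05) were past the threshold, and lung over spleen (0.44, adjusted p = 0.41) was not. The overlapping antisense gene Igf2os held 22 counts in all tissue libraries, beside 13149 of Igf2.

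Meg3 and Dlk1, neighbours as well, were both highest in brain. Meg3 was at 1715 and 3473 CPM there, and no library of another normal tissue exceeded 36.7 CPM. Brain over lung, the next tissue, gave a log2 fold change of 7.09 (SE 0.61, adjusted p = 7.3e-11), and the steps from lung to muscle, muscle to spleen and spleen to liver (adjusted p of 0.36, 0.18 and 0.053) did not pass. The fit put muscle above lung (0.51), against the order of the medians. Muscle over liver (1.79, adjusted p = 0.0014) and lung over liver (1.28, adjusted p = 0.013) did pass. Dlk1 was at 218 CPM in the brain of mouse M00237 and at 13.9 CPM in that of mouse M00238, so its mean rests on 1 library. The pituitary hormone genes Pomc and Gh were at 20.0 and 8.19 CPM in the first brain and at 2.28 and 0 CPM in the second, while 5 neuroendocrine markers summed to 367 and 373 CPM in them, and their part in the Dlk1 value was not tested. Outside brain Dlk1 reached at most 3.76 CPM, in muscle, and was listed at 0 in 5 of 8 livers and 4 of 7 lungs.

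Peg3 was at 444 and 439 CPM in brain, 18.7 to 33.8 CPM in muscle, 28.4 CPM in kidney, 3.33 to 9.57 CPM in lung, 0.615 to 4.06 CPM in spleen and 1.0 to 5.05 CPM in liver. Each step between neighbours in that order was past the threshold among the replicated tissues, but the last ran the other way in the fit, with spleen below liver by -1.03 (adjusted p = 0.014). The fit scales libraries by the trimmed mean of M values, with factors of 0.618 to 0.732 for liver and 1.05 to 1.54 for lung, spleen and brain, so that liver values count for more in it than in CPM. H19 was likewise lower in lung than in liver in the fit (-1.79, adjusted p = 0.0046) with the median CPM the other way round, and its liver mean includes the 26.1 CPM of mouse M00247.

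Among the tissues with replicates Cdkn1c had its highest median in muscle, 51.4 CPM (22.7 to 80.8), with lung at 15.6 to 63.5 CPM. The kidney library, at 63.5 CPM, lay above that median. The log2 fold change of muscle over lung was 1.05 (SE 0.32, adjusted p = 0.0068), and lung and brain did not differ beyond their spread (0.72, adjusted p = 0.24). Plagl1, at 18.1 to 39.3 CPM in lung, 33.5 and 15.3 CPM in brain and 11.7 to 32.2 CPM in muscle, had no step between neighbours among these 3 tissues past the threshold. It was 0.811 to 2.48 CPM in liver and 0 to 1.62 CPM in spleen. Grb10 was at 49.4 and 30 CPM in brain, 21.8 to 43.8 CPM in lung and 10.8 to 17.2 CPM in muscle, with neither step past the threshold, and lower in spleen (6.46 to 12.0 CPM) and liver (0.716 to 5.07 CPM). Mest was low in every normal tissue, at most 7.85 CPM, and no step between neighbours in its order passed. Of the 10 pairs 4 did: brain over liver (2.42, adjusted p = 0.016), brain over spleen (2.35, adjusted p = 0.026), brain over muscle (2.42, adjusted p = 0.027) and lung over liver (1.46, adjusted p = 0.049). Its values are uncertain, since 28 of 40 tissue samples and 16 of 18 MEF libraries have an expected count for Mest that is not whole (by more than 0.001), as happens where reads are divided among loci. It also overlaps Copg2 on the other strand, a gene with 9680 counts in tissues beside 2683 of Mest, and the strand setting of the counting is not given in the sources used here.

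**Figure D2:**
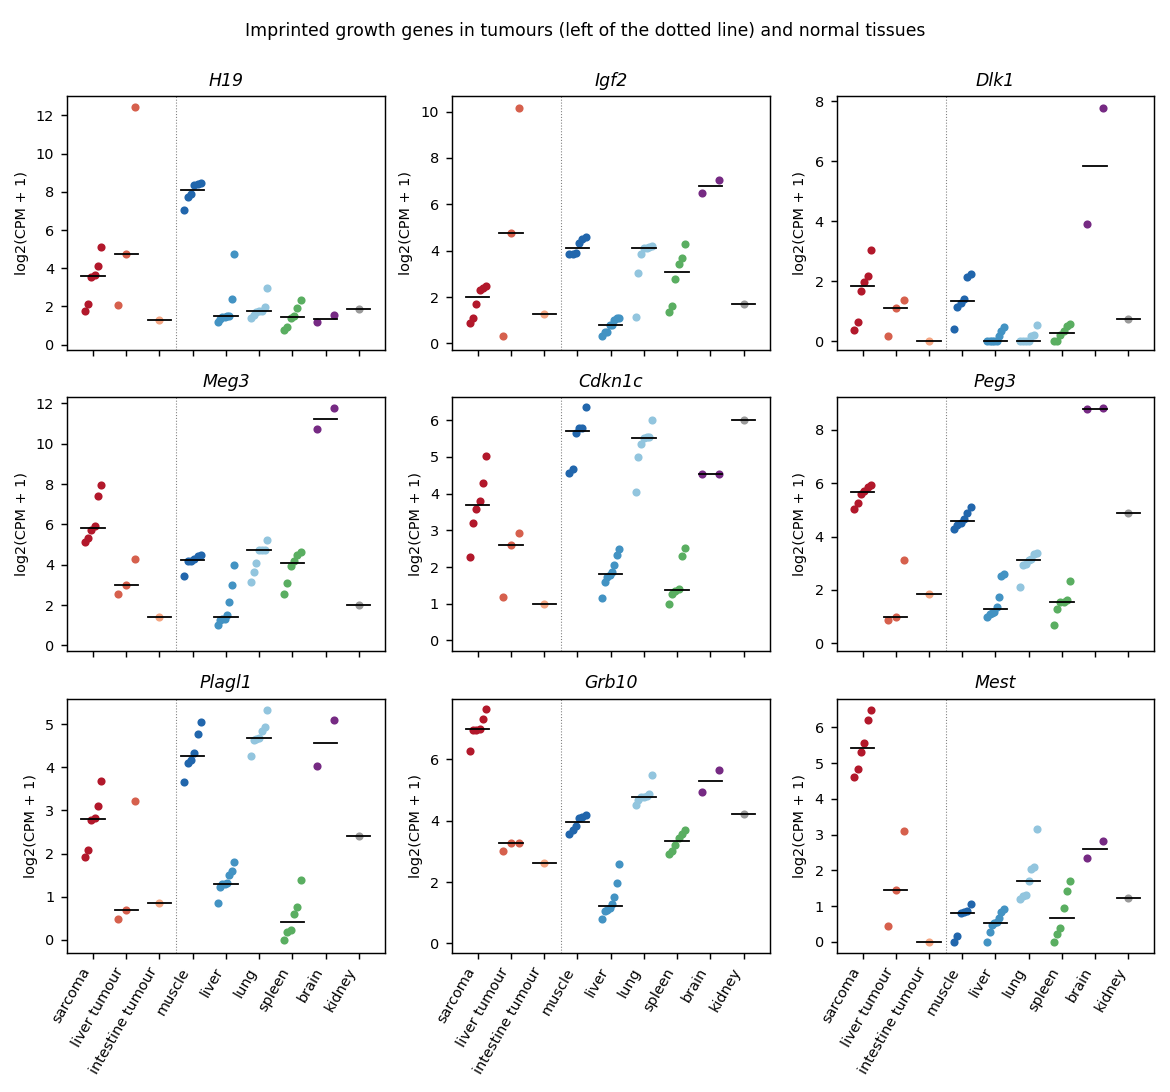
Level of each gene as log2(CPM + 1), with 1 point per mouse and a bar at the median, in tumours (left of the dotted line) and normal tissues. Grb10 and Mest were higher in all 6 sarcomas than in every muscle, liver, lung and spleen, H19 was highest in muscle and in 1 liver tumour, and Meg3, Peg3 and Dlk1 were highest in brain. The share of all genes with such a separation of sarcomas was not computed.

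In sarcomas the members divided into 3 that were higher than in muscle, 4 that were lower and 2 that did not pass, where 64.9% of all 14698 genes were called. The members' median log2 fold change was -0.48, beside 0.06 over all genes. Sarcomas and muscle are different tissues with different cells. The 7 markers of muscle fibres summed to 51.7 to 2959 CPM in sarcomas and 14410 to 27325 CPM in muscle, those of fibroblasts to 7748 to 31789 CPM and 1293 to 1696 CPM, and those of Schwann cells and neural crest to 2400 to 5539 CPM and 83.5 to 170 CPM. Keratinocyte markers were present in both, at 340 to 6036 CPM and 856 to 4010 CPM. The part of these cells in the members' values was not tested, and other normal tissues are given beside muscle for that reason.

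Grb10, the adaptor that dampens insulin and IGF receptors, was at 124, 76.6, 123, 159, 127 and 199 CPM in the sarcomas of mice M00235, M00236, M00237, M00238, M00245 and M00248. In muscle it was at 10.8 to 17.2 CPM (median 14.7), and the groups did not overlap. The log2 fold change was 2.23 (SE 0.2, adjusted p = 6.1e-07), or 4.7-fold. Sarcomas were also above lung (2.12, SE 0.25), liver (4.88, SE 0.27) and spleen (3.4, SE 0.28), with adjusted p of 1.4e-08, 8.4e-17 and 4.9e-12 in a joint fit with 4 normal tissues. In that fit 54.1% of genes were called against muscle, 44% against lung, 68.8% against liver and 52.3% against spleen, and 31 of 36 tests of members were past the threshold. The share of all genes without overlap in CPM between sarcomas and a normal tissue was not computed, here or for the members below.

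Mest was at 38.3, 23.4, 27.4, 88.2, 46.0 and 72.4 CPM in the same 6 sarcomas and at 0 to 1.1 CPM in muscle. All sarcomas lay above all libraries of muscle, lung, liver and spleen. The log2 fold change was 5.33 against muscle (SE 0.51, adjusted p = 9.1e-07), 3.88 against lung, 5.34 against liver and 5.25 against spleen, with adjusted p of 3.4e-07 or below in the joint fit. The fold against muscle rests on few counts in muscle and depends on the small count that the fit adds. Copg2 was at 24.7 to 78.6 CPM in sarcomas and 18.8 to 35.8 CPM in muscle.

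Meg3 was at 51.6, 59.2, 39.6, 169, 33.8 and 244 CPM in the sarcomas, against 9.92 to 21.4 CPM in muscle (log2 fold change 1.52, SE 0.46, adjusted p = 0.0094). In plain CPM all 6 sarcomas were above all muscles, livers and spleens, and the lowest sarcoma was below the highest lung, 36.7 CPM. The scaling factors of the fit, 1.06 to 1.56 for sarcomas and 0.65 to 0.803 for muscle, narrow the gap to muscle. The 2 libraries from mouse M00245 differed among themselves, with 62.6 and 10.8 CPM of Meg3 and 21.1 and 2.65 CPM of H19. The lower of these Meg3 values lay within the range of muscle. Dlk1, the neighbour of Meg3, was at 2.23, 2.96, 0.301, 3.52, 0.551 and 7.24 CPM in sarcomas and 0.331 to 3.76 CPM in muscle, and did not pass against muscle (log2 fold change -0.48, SE 0.69, adjusted p = 0.56). It passed as higher against lung (adjusted p = 8.8e-05), liver (adjusted p = 0.00068) and spleen (adjusted p = 0.0023), with at most 0.487 CPM in any library of these tissues.

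Peg3 was at 31.5 to 59.9 CPM in sarcomas (median 49.6) and 18.7 to 33.8 CPM in muscle (median 22.9), and its log2 fold change was near 0 in the fit (-0.04, SE 0.19, adjusted p = 0.87). The scaling factors, 1.06 to 1.56 for sarcomas and 0.65 to 0.803 for muscle, separate the 2 scales for this gene. Against lung, liver and spleen it was higher by 2.54, 3.13 and 4.11 (adjusted p of 3.6e-08, 1.3e-10 and 3e-11), with no overlap in CPM.

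**Figure D3:**
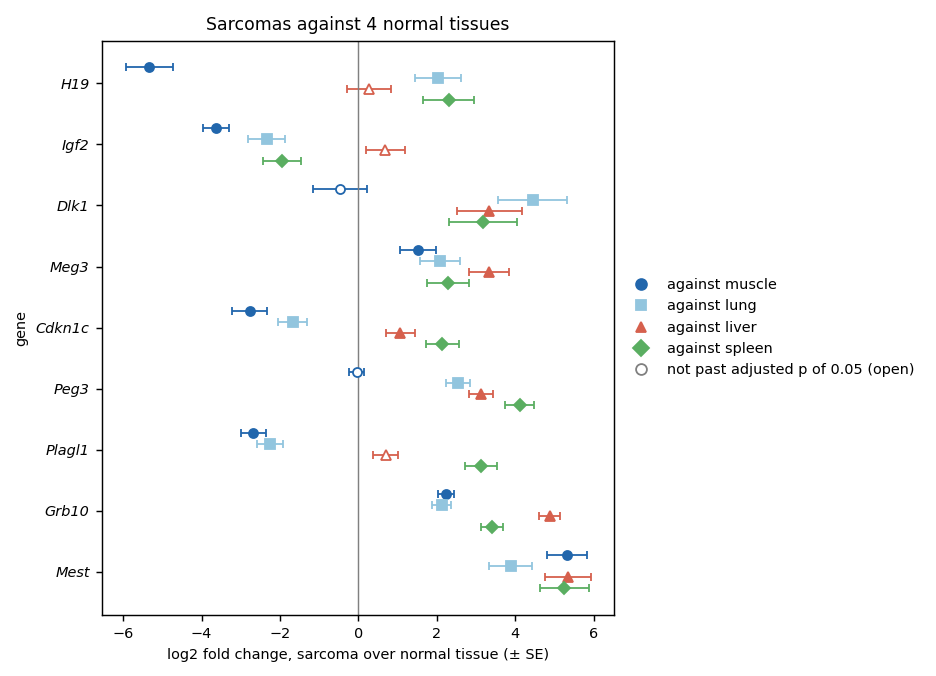
Log2 fold change of sarcoma over muscle, lung, liver and spleen for each gene, with the standard error as bars and open symbols where the adjusted p was above 0.05. Meg3, Grb10 and Mest lie to the right of 0 against all 4 tissues, and Igf2 lies to the left against muscle, lung and spleen.

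H19, Igf2, Cdkn1c and Plagl1 were lower in sarcomas than in muscle. H19 was at 3.34, 11.3, 2.41, 34.1, 10.8 and 16.1 CPM in the sarcomas and 132 to 353 CPM in muscle (log2 fold change -5.33, SE 0.61, adjusted p = 4.8e-06). It was above lung (2.03, adjusted p = 0.0053) and spleen (2.3, adjusted p = 0.0034) and did not differ from liver beyond the spread (0.27, SE 0.55, adjusted p = 0.68). Igf2 was at 1.11, 0.87, 3.91, 4.28, 2.3 and 4.49 CPM in sarcomas and 13.3 to 23.4 CPM in muscle, without overlap (log2 fold change -3.63, SE 0.34, adjusted p = 8.3e-07). It was also below lung (-2.34, adjusted p = 0.00013) and spleen (-1.95, adjusted p = 0.00099) and did not pass against liver (0.68, adjusted p = 0.23).

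Cdkn1c was at 3.83 to 31.4 CPM in sarcomas (median 11.9), against 22.7 to 80.8 CPM in muscle, with a log2 fold change of -2.77 (SE 0.45, adjusted p = 0.0001). It was also below lung (-1.68, adjusted p = 0.00044), and above liver (1.06, adjusted p = 0.013) and spleen (2.14, adjusted p = 7.8e-05). The call against liver did not hold without the sarcoma of mouse M00238 (0.66, adjusted p = 0.11). Plagl1 was at 2.78 to 11.9 CPM in sarcomas (median 5.96) and 11.7 to 32.2 CPM in muscle (log2 fold change -2.68, SE 0.31, adjusted p = 5.3e-06). It was below lung (-2.25) and above spleen (3.12), with adjusted p of 8.4e-07 and 1.3e-07. Against liver it gave 0.69 (adjusted p = 0.061), and it passed in 6 of 14 alternative settings.

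Lists of related genes in the sarcoma and muscle comparison stand beside 33.5% of all genes higher and 31.4% lower in sarcomas. Of 35 other imprinted genes tested, 9 were higher and 11 lower in sarcomas, with a median of -0.01 beside 0.06 over all genes. The sarcoglycan gene Sgce (2.32, adjusted p = 1.1e-07) and the phosphatase gene Inpp5f (1.76) were among the higher, and Snrpn, of the splicing machinery (-4.93), and Cobl, an actin nucleator (-2.86), among the lower. Of 16 IGF receptors, binding proteins and partners, 4 were higher and 6 lower. Igfbp5 (-3.05) and Igfbp2 (-4.26) fell and Igfbp7 (2.11) rose. Of 18 cell cycle genes (cyclins, their kinases, inhibitors other than Cdkn1c and proliferation genes), 13 were higher and 1 lower, with a median of 1.36. Ccnd3 (2.71), Cdk6 (2.6) and the proliferation marker Mki67 (2.29) were higher. Of 11 Notch receptors and ligands, relatives of Dlk1, 0 were higher and 4 lower, among them Jag2 (-2.61) and Dlk2 (-3.03).

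In liver tumours 2 of the 6 members tested, H19 and Grb10, were higher than in normal liver, where 10.6% of all 13256 genes were called. The members' median log2 fold change was 0.91, beside 0.09 over all genes. Igf2, Dlk1 and Mest were below the filter on low counts and so were not among the 6. The 3 tumours differed widely from each other. H19 was at 3.25 CPM in the tumour of mouse M00236, 26.2 CPM in that of M00248 and 5454 CPM in that of M00249. In normal livers it was at 1.24 to 4.17 CPM in 7 mice and at 26.1 CPM in mouse M00247. The fitted log2 fold change, 8.3 (SE 1.52, adjusted p = 0.005), rests on the M00249 tumour, and without it the value was 1.44 (adjusted p = 0.4). No normal liver of mouse M00249 was among the libraries. Its normal muscle, lung and spleen held 339, 2.96 and 0.732 CPM of H19, within the range of those tissues in other mice except for spleen, where it was the lowest.

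Igf2 had the same order over the tumours as H19, at 0.241, 26.4 and 1146 CPM in the tumours of M00236, M00248 and M00249, against 0.248 to 1.15 CPM in normal livers. The M00236 tumour was at the level of normal liver or just under it, and the others lay far above. Without a filter on low counts the log2 fold change was 8.73 (SE 1.07, adjusted p = 6.9e-05), and without the M00249 tumour as well it was 3.95 (SE 0.74, adjusted p = 0.0029). This last setting was chosen after its values were seen. The normal muscle, lung and spleen of mouse M00249 held 19.1, 16.4 and 5.86 CPM of Igf2.

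Grb10 was the only member with no overlap between tumours and livers. It was at 7.1, 8.72 and 8.61 CPM in the tumours and 0.716 to 5.07 CPM in normal livers (median 1.34), with a log2 fold change of 1.92 (SE 0.44, adjusted p = 0.016). Without the M00248 tumour the value was 1.86 (adjusted p = 0.056), and 860 genes in all were called, against 1407. With the mouse as a block, which leaves the pairs of M00236 and M00248 and few residual degrees of freedom, 0 members and 0 genes passed, and H19 gave 1.83 and Grb10 1.46.

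The M00249 tumour was above every normal liver for all 9 members, and was the highest of the 3 tumours for 7 of them. Plagl1 was at 8.36 CPM in it, at 0.601 and 0.396 CPM in the tumours of M00236 and M00248 and at 0.811 to 2.48 CPM in livers. Peg3 was at 7.6 CPM in it, 0.842 and 0.991 CPM in the other tumours and 1.0 to 5.05 CPM in livers. Meg3 was at 18.2 CPM, beside 7.1 and 4.86 CPM in the other tumours and 1.05 to 14.9 CPM in livers. Mest was at 7.56 CPM, beside 1.73 and 0.359 CPM in the other tumours and 0 to 0.881 CPM in livers. Cdkn1c was at 6.58 CPM, beside 5.05 and 1.29 CPM in the other tumours and 1.24 to 4.62 CPM in livers. None of these 5 passed over the 3 tumours, Mest without the filter included (log2 fold change 2.37, adjusted p = 0.093), and without the M00249 tumour the fitted values of Peg3 (-1.44, adjusted p = 0.26) and Plagl1 (-1.78, adjusted p = 0.071) were below 0. Only H19 and Igf2 exceeded the highest liver more than 10 times over in this tumour. Among 37 other imprinted genes at 1 CPM or more in some tumour or liver library, 17 were above every liver in the M00249 tumour, 15 in the M00236 tumour and 11 in the M00248 tumour, and 1, 0 and 0 exceeded the highest liver more than 10 times. The share of all genes above every liver, or without overlap over the 3 tumours, was not computed.

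**Figure D4:**
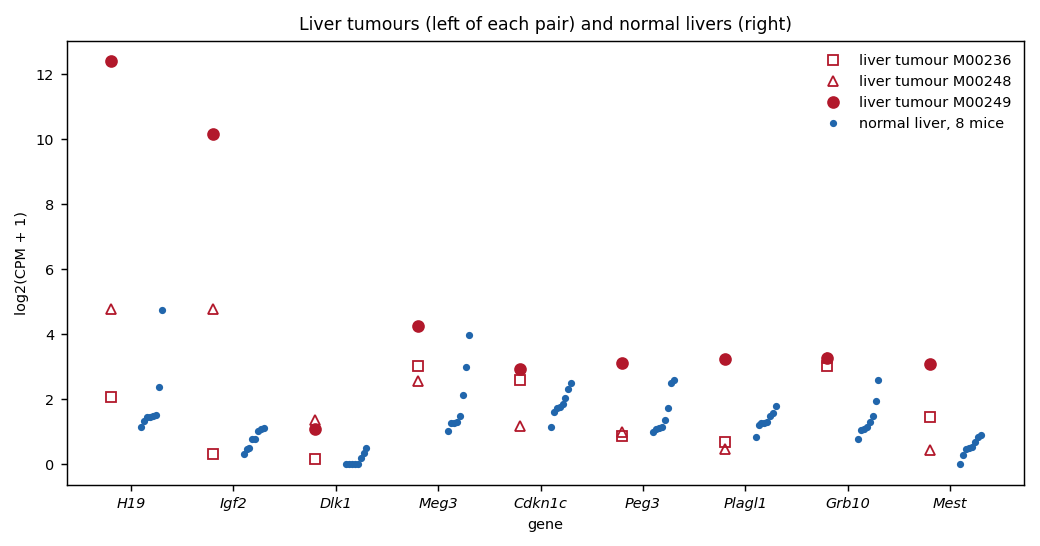
Level of each gene as log2(CPM + 1) in the 3 liver tumours (red, left of each pair) and 8 normal livers (blue, right). H19 and Igf2 reached 5454 and 1146 CPM in the tumour of mouse M00249 and 26.2 and 26.4 CPM in that of M00248, and of the members only Grb10 had all 3 tumours above all livers. The share of all genes with such a separation was not computed.

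The tumour with the most H19 and Igf2 was not the one with the most Afp and Gpc3. Afp, the fetal counterpart of albumin, was at 11.4, 364 and 17.9 CPM in the tumours of M00236, M00248 and M00249, against 0.405 to 1.8 CPM in livers. Gpc3, a cell surface proteoglycan of fetal liver, was at 1.92, 124 and 1.77 CPM, against 0.135 to 3.32 CPM in livers. Of 7 tested genes of the fetal liver list, 4 were higher in tumours and 0 lower: Scd2 (4.09), Afp (6.84), Cpe (5.81) and Gpc3 (4.95), with adjusted p of 0.0072 or below. Hepatocyte markers summed to 20722, 93422 and 45198 CPM in the tumours in the same order, and all 7 were detected in each. Albumin itself was at 5963, 69449 and 30324 CPM, beside 12622 to 41262 CPM in livers.

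Of all genes, 6.98% were higher and 3.64% lower in liver tumours. Of 31 other imprinted genes tested, 5 were higher and 0 lower, with a median of 0.19 beside 0.09 over all genes. Igf2r, the receptor that clears Igf2, was higher (1.01, adjusted p = 0.027), as was Airn, the noncoding RNA that overlaps it (3.53, adjusted p = 0.0083). Phlda2, a growth-restraining gene of the same cluster as Cdkn1c, was at 9.02 to 11.1 CPM in the tumours and 0 to 4.62 CPM in livers (3.78, adjusted p = 0.042). Of 17 genes of the IGF list, 3 were higher and 1 lower. Igfbp1 gave 4.78 (adjusted p = 0.00079), Igfbp3 1.58 and Igfbp4 -0.82. Of 17 cell cycle genes 4 were higher, among them the inhibitors Cdkn1a (3.23) and Cdkn2a (2.15), and of 8 Notch genes 1 was higher, the target Hes1 (1.66).

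Between sarcomas and liver tumours, 4 of the 9 members were higher in sarcomas, 2 were lower and 3 did not pass. Of all 16558 genes 55.8% were called, so the number of members called is near that of genes at large. Grb10 (3.07, SE 0.29, adjusted p = 6.4e-06), Peg3 (2.99, SE 0.62, adjusted p = 0.002), Mest (2.99, SE 0.75, adjusted p = 0.0056) and Meg3 (2.35, SE 0.73, adjusted p = 0.017) were higher in sarcomas. H19 (-8.03, SE 1.67, adjusted p = 0.002) and Igf2 (-8.04, SE 1.48, adjusted p = 0.00089) were lower. Without the M00249 liver tumour H19 gave -1.14 (adjusted p = 0.3) and Plagl1, which had not passed, gave 2.61 (adjusted p = 0.011). Meg3 did not pass without the M00236 liver tumour (2.18, adjusted p = 0.069) or without that of M00248 (2.02, adjusted p = 0.067). With the mouse as a block H19 gave -0.35 (adjusted p = 0.82) and Igf2 -2.06 (adjusted p = 0.14), so that 4 members passed. In mouse M00248, which gave tumours of both kinds, the sarcoma and the liver tumour held 244 and 4.86 CPM of Meg3, 72.4 and 0.359 CPM of Mest, 16.1 and 26.2 CPM of H19, and 4.49 and 26.4 CPM of Igf2. In mouse M00236 the sarcoma and the liver tumour held 11.3 and 3.25 CPM of H19 and 0.87 and 0.241 CPM of Igf2.

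The intestine tumour, from 1 mouse and without a normal intestine beside it, held little of any member. Grb10 was at 5.19 CPM, Peg3 at 2.56 CPM and the others at 0 to 1.63 CPM, with Dlk1 and Mest at 0.

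The related genes were also counted between MEF passages, where 1.81% of all genes were higher and 1.01% lower at passage 3. Of 34 other imprinted genes tested, 0 were higher and 2 lower at passage 3, Nnat (-1.38, adjusted p = 0.029) and Peg12 (-0.49, adjusted p = 0.037), with a median of -0.05. The members' own median was -0.88, and that of all genes 0. In the IGF list the RNA-binding proteins Igf2bp3 (-0.43, adjusted p = 0.024) and Igf2bp1 (-0.37, adjusted p = 0.034), which bind Igf2 messages, were lower and Igfbp6 (1.07, adjusted p = 0.024) was higher, of 18 tested. Of 8 genes of the fetal liver list, Gpc3 (-1.18, adjusted p = 0.014) and Bex2 (-2.24, adjusted p = 0.037) were lower. Of 18 cell cycle genes, Ccnd3 (-0.26, adjusted p = 0.02) and Top2a (-0.26, adjusted p = 0.048) were lower, and 0 of 7 Notch genes passed.

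Across 9 tissue and tumour types the genes with a pattern most like each member's were named by the Pearson correlation of mean log2(CPM + 1), over 14516 genes that reached 5 CPM in some type. The types are only 9 points and several share mice, so these are descriptions. Meg3 was most like Rian (r = 0.989) and near Mirg (0.978), noncoding RNAs of its own imprinted cluster, and Dlk1, its protein-coding neighbour, gave 0.929. Rian was at 159 to 215 CPM in brain, 3.46 to 37.6 CPM in sarcomas and 2.98 to 4.58 CPM in muscle. H19 and Igf2, neighbours too, gave only 0.329, and the genes most like them were Duoxa1 (0.981) for H19 and Spire2 (0.955) for Igf2. Grb10 and Mest gave 0.873 with each other, and their most similar genes were Pcgf2 (0.98) and Lpar4 (0.963). Cdkn1c and Plagl1 gave 0.824, with Vldlr (0.96) and Osbpl2 (0.987) closest, and Peg3 was most like Enox1 (0.98).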

How the data were processed

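Expected counts per gene, deposited by the authors in 1 table for MEFs and 1 for tissues, were the start, and 6.6% and 8.35% of all values in them were not whole. As to aligner, counter and build, the sources used here give none. Of the gene identifiers, 46005 of 46517 in the MEF table and 54723 of 54838 in the tissue table are in GENCODE mouse release 21, used for chromosomes and overlaps only. Counts were rounded for the tests, although the design had named raw counts. The CPM of the members and of the marker sums was computed from the unrounded counts, and that of most other named genes from the rounded ones. The deposited CPM tables were not used, and 0 columns were left unmapped.

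Differences were tested by quasi-likelihood in edgeR (version 4.0.16, under R 4.3.3), two-sided. Libraries were scaled by TMM, genes kept by filterByExpr (10 counts at least), and p-values adjusted by the Benjamini-Hochberg method across every gene kept. All 18 MEF libraries shared 1 fit of 6 groups. Tissue pairs were fitted on the groups compared, with further joint fits of sarcoma with 4 normal tissues and of 5 normal tissues. Standard errors came from the F statistic. On simulated data in which 200 genes were changed, 4-fold changes were recovered in 100% of cases, and 2-fold changes in 99% for the passages, 52% for homozygous against negative at passage 1, 96% for sarcoma against muscle and 77% for liver tumour against liver. The simulation gave every gene the same fixed spread, changed only genes above a minimum mean count and had no embryo or mouse structure. These rates check the procedure and do not tell how often a change in a member would be called.

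The members, gene lists, tests and alternatives were chosen with earlier results of these data known. The text names the 9 members, up to 4 genes of each list and comparison with the smallest adjusted p, and for each member the genes with the most similar pattern (of at most 3). Some others (Copg2, Igf2os, Pomc, Gh, Alb and Nrg1) were named after their values were seen, as checks beside a member. Replicates are embryos or mice. Labels do not say whether cultures were otherwise separate, and p-values measure only the spread between these samples. Intervals and floors cover counting error only. Every pair of libraries in a group differed by more than sampling noise (smallest chi-square per degree of freedom 2.99 in MEFs and 11.7 in tissues). Same-numbered samples come from the same embryo or mouse. Their deviations correlated by 0.05 to 0.34 over the 9 embryos, -0.07 to 0.33 for sarcoma with muscle and -0.15 to 0 for pairs with liver tumours. The alternatives comprised scaling by relative log expression, the tool DESeq2 (1.42.0), omitting the filter, a mean of at least 5 CPM, no mitochondrial genes, leaving out each embryo or library, fits of the groups compared alone, embryo or mouse as a block, and each sarcoma library of mouse M00245 alone.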

Additional observations from a re-analysis of the deposited data

Results flagged for a closer look

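Among 63 combinations of a member with a group of 6 to 9 samples, 12 had a sample far from the rest by the gap to its nearest neighbour. For independent, normally distributed values chance gives about 1 such case in 20 combinations. CPM values need not be normal and combinations share libraries, so the 12 cases are not judged against that rate. Embryo 10 accounted for 5 of the 12. It had the highest H19 at passage 3 (1085 CPM, next 754 CPM), the highest Igf2 at passage 3 (495 CPM, next 308 CPM) and at passage 1 (907 CPM, next 603 CPM), the highest Grb10 at passage 1 (414 CPM, next 337 CPM) and the lowest Meg3 at passage 3 (838 CPM, next 1458 CPM). At passage 1 this embryo also had 182 CPM of summed satellite cell and myoblast markers, against 1.89 to 17.2 CPM in the other embryos, and 4.1 CPM at passage 3.

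In normal tissues the liver and the lung of mouse M00247, the mouse with the intestine tumour, had the highest H19 of their groups, at 26.1 CPM (next 4.17 CPM) and 6.9 CPM (next 2.96 CPM). The lung of mouse M00238 had the highest Grb10 (43.8 CPM, next 28.0 CPM) and the highest Dlk1 (0.454 CPM, next 0.152 CPM, values from few counts). The remaining cases were the highest Meg3 of 8 livers in mouse M00236 (14.9 CPM, next 7.04 CPM), the lowest Meg3 of 6 muscles in mouse M00237 (9.92 CPM, next 17.1 CPM) and the highest Mest of 7 lungs in mouse M00237 (7.85 CPM, next 3.28 CPM).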

How the results depend on the processing

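Of 1004 fold changes of members recomputed under an alternative, 939 kept their direction and their side of the threshold, 24 passed only under the alternative, 22 no longer passed and 19 changed sign, none of these with a call in either fit. The number of members past the threshold stayed within 1.5 times of 7 for sarcoma against muscle, of 6 for sarcoma against liver tumour, of 31 for sarcoma against 4 normal tissues, of 65 for the normal tissue pairs and of 0 for homozygous against negative embryos at passage 3 in all settings run. For the passages, 4 became 7 without a filter and 7 with the replicate block, 0 without embryos 1 and 3, and 2 to 6 when any 1 embryo was left out. For homozygous against negative embryos at passage 1, 0 became 1 without a filter (Peg3) and 0 to 3 with 1 embryo left out. For liver tumour against liver, 2 became 1 under DESeq2, 1 to 3 with 1 library left out and 0 under the replicate block. DESeq2 gave no adjusted p for H19 and Plagl1 there, nor for H19 and Igf2 in sarcoma against liver tumour. The numbers of members past the threshold count these as not past it, while the 1004 fold changes leave them out. The block changed no other count by more than 1.5 times, though all genes called fell to 3897 from 9242 in sarcoma against liver tumour.

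The changes of sign were these. Meg3 between passages lay between -0.05 and 0.19 with 1 embryo left out. In homozygous against negative embryos at passage 1, without embryos 2, 3 and 10, which were set apart by these genes' own values, Dlk1 gave 0.1 and Mest -0.78. Peg3 in sarcoma against muscle lay between -0.15 and 0.05 without single libraries and at 0.06 with the block. In liver tumours Peg3 lay between -1.44 and 0.65 and Plagl1 between -1.78 and 1.24 with 1 library left out, both lowest without the M00249 tumour, and with the block Cdkn1c gave -0.02, Peg3 -0.5 and Plagl1 -2.07. Plagl1 in sarcoma against liver tumour lay between -0.46 and 2.61 without single libraries, and H19 in sarcoma against liver between -0.28 (without the M00238 sarcoma) and 0.49. The causes were not tested. Genes called between passages numbered 590 under DESeq2, 515 without a filter and 30 to 779 with 1 embryo left out, against 340, and between homozygous and negative embryos at passage 1 they numbered 24, 30 and up to 891, against 0. Relative log expression scaling moved the median of all genes by more than 0.1 only in pairs of normal tissues, at most to 0.2 from 0 for brain against liver. Depth limits Dlk1 and Mest most, which had few counts in most normal tissues.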
